A study of Mus musculus with 2 samples.

Results

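The insulin-like growth factor (IGF) axis was followed here through 9 of the 19059 genes counted in the series, taken by their symbols: the ligands Igf1 and Igf2, the receptors Igf1r and Igf2r, and the binding proteins Igfbp2, Igfbp3, Igfbp4, Igfbp5 and Igfbp7. All 9 had a row in every count matrix. The cells came from glioblastomas grown in the brains of C57BL/6J mice from mGSC, a mouse glioblastoma stem cell line carrying Trp53+/- and Nf1+/-, so that every tumor of both groups had this genotype. Tumor cells and host cells were sequenced together with a probe-based 10x Genomics assay for fixed cells. The mice of 1 group received vehicle every day and those of the other received Xevinapant every day, a small molecule that mimics SMAC and blocks the inhibitor of apoptosis proteins. Each group was given by the submitters as 4 tumors and came as 4 matrices. A single implanted line was used, so the tumor cells of all samples share 1 origin. The age of the mice was not used here.

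IGF1 and IGF2 are secreted growth factors that signal through the receptor tyrosine kinase IGF1R. IGF2R, which is also the cation-independent mannose 6-phosphate receptor, does not signal in this way and carries IGF2 to lysosomes for breakdown. The IGF binding proteins hold the ligands outside the cell and can limit or prolong their action. Igf2 is an imprinted fetal growth factor gene, and in the brain Igf1 is known from microglia, macrophages and vessel-associated cells. Igfbp7 is known as a vascular gene that rises in glioblastoma vessels, and Igfbp3 and Igfbp2 are known from hypoxic and glial cells of gliomas.

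The 8 matrices held 56943 barcodes, of which 50669 were kept, with median counts of 7452 to 14027 unique molecular identifiers (UMIs) a barcode over the matrices. In 3 pairs of matrices of the same group the summed counts differed by 1.47 to 2.89 times the sampling noise, against 5.51 to 9.38 in the other 9 pairs. These 3 pairs were joined for this reason alone, which left 5 samples. Droplet barcodes were shared between matrices of the same group (7.13 to 22.1% of the smaller matrix, with the joined vehicle pair the lowest) and between groups, and did not follow the joined pairs. Between groups the sharing was 3.95 to 7.85% for matrices of the same number and 0.799 to 3.42% for the others. The vehicle samples are 1 and 3 (joined), 2, and 4, the Xevinapant samples are 1 and 2 (joined) and 3 and 4 (joined), and the values below follow this order. Joined matrices may be 1 tumor, and p-values measure only the spread between these 5 samples. The pool and the batch date coincided with treatment, so the treatment cannot be told apart from either. With 3 samples against 2, the exact two-sided permutation test as run here cannot give a p below 0.2.

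Cells were placed in classes by lists of 10 marker genes that hold no member of the axis. The tumor gate held 36159 cells, the fibroblast gate 540, the endothelial gate 214, the mural gate (pericytes and smooth muscle) 34, the microglia gate 328, the infiltrating macrophage and monocyte gate 1797 and the neutrophil gate 342. By sample, the fibroblast gate held 46, 16 and 97 cells with vehicle and 261 and 120 with Xevinapant. The mural gate held 9, 3 and 7 with vehicle and 6 and 9 with Xevinapant. Marker genes that the gates did not use were highest in their own class for 5 of 5 endothelial, 5 of 5 fibroblast, 5 of 5 tumor, 4 of 5 mural, 3 of 4 microglia and 3 of 4 neutrophil genes. For the infiltrating gate this held for 2 of 5 genes only. The summed level of that list in the microglia gate was 78.3% of its level in the infiltrating gate, and in the neutrophil gate 80.5%. Lyz2 was the largest part, at 3378 CPM in microglia-gated, 3899 in infiltrating and 3183 in neutrophil-gated cells. Microglia-gated cells had similar Ms4a6c and Clec4n to infiltrating cells (328 and 271 against 301 and 289 CPM). Their S100a4 and Chil3 were far lower (35.4 and 0.671 against 440 and 164 CPM). These 3 myeloid gates thus overlap in part of their markers. Levels are given in CPM, the UMIs of a gene scaled to a common total of 1e6 UMIs for each class and sample. Different genes carry different probes, so levels are compared between cells and not between genes.

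Of the binding proteins, Igfbp3, Igfbp4 and Igfbp7 had their highest mean level in endothelial-gated cells. The 250 bases before the transcription start of each are shown because these 3 genes share this cell class while their start regions differ in letters. They were read from RefSeq on GRCm38.p6, the assembly of mm10, 5′ to 3′ on the strand of the gene, with all 9 members matched by symbol. Capitals mark matches on either strand to TATANA, the core of a TATA box, or to GGGCGG, a GC box; overlapping matches form 1 run of capitals. The windows are chr11:7213924-7214173 on the minus strand for Igfbp3, chr11:99040994-99041243 on the plus strand for Igfbp4 and chr5:77408046-77408295 on the minus strand for Igfbp7.
Igfbp3: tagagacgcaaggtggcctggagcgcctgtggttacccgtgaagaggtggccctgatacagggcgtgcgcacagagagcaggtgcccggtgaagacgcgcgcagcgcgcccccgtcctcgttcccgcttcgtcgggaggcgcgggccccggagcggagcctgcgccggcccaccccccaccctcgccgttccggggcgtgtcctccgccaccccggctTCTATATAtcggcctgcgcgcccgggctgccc
Igfbp4: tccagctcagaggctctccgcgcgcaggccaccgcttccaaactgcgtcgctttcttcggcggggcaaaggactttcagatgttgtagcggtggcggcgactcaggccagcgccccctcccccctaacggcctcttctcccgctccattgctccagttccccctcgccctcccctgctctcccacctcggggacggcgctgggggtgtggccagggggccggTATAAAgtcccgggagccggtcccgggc
Igfbp7: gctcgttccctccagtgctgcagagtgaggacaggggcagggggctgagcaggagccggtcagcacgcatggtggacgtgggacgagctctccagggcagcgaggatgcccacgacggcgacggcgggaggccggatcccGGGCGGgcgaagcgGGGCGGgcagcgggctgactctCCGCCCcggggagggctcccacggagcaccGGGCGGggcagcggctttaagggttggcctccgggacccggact
The Igfbp3 window held 2 overlapping TATANA matches 32 bases before the start and no GGGCGG. In the Igfbp4 window 1 TATANA match lay 28 bases before the start, also without GGGCGG. The Igfbp7 window held 4 GGGCGG matches and no TATANA. Of 32851 mouse start windows of the same length, 22.6% held TATANA and 32.7% held GGGCGG. The GC content was 73.2% for Igfbp3, 69.2% for Igfbp4 and 74% for Igfbp7, against a median of 52.4% over all windows. These matches describe letters and were not tested as sites. In the GENCODE M21 annotation on mm10, Igfbp7 spans chr5:77349240-77408041 on the minus strand, Igfbp3 chr11:7206086-7213923 on the minus strand and Igfbp4 chr11:99041244-99054392 on the plus strand. Igfbp2 at chr1:72824503-72852474 (plus strand) and Igfbp5 at chr1:72857932-72874884 (minus strand) lie 5457 bases apart. The ligand genes lie at chr10:87858265-87937042 (Igf1, plus strand) and chr7:142650766-142666816 (Igf2, minus strand), and the receptor genes at chr7:67952827-68233668 (Igf1r, plus strand) and chr17:12682406-12769664 (Igf2r, minus strand).

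Igf2 was the gene with the most UMIs of all 19059 in the tumor-gated cells of every sample. Its level there was 31291, 35252 and 36678 CPM in the vehicle samples and 27214 and 26244 CPM in the Xevinapant samples, so that it took 2.62 to 3.67% of all tumor UMIs. An Igf2 UMI was found in every tumor-gated cell, but also in 98.9% of fibroblast-gated, 98.4% of microglia-gated, 97.9% of infiltrating, 96.6% of endothelial-gated and 85.0% of neutrophil-gated cells, so that detection does not separate the classes. The median cell held 21811 to 33920 CPM over the samples, the fifth percentile 4045 to 9143 CPM and the 95th percentile 55945 to 68675 CPM. The tenth of tumor cells with the most Igf2 UMIs held 31.4 to 41.2% of them. Tumor-gated cells supplied 99.4% ± 0.405 (SD, n = 5) of the Igf2 UMIs of all gated cells, of which they were a mean of 91.2%.

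Lower levels of Igf2 were counted in every other class. In fibroblast-gated cells the CPM was 9549, 5783 and 6127 with vehicle and 2213 and 9175 with Xevinapant, and in microglia-gated cells 6131, 5012 and 6214 with vehicle and 6196 and 6248 with Xevinapant. The infiltrating gate stood at 2379, 4578 and 4089 CPM with vehicle and 1901 and 3662 CPM with Xevinapant. No sample of these classes reached the lowest tumor sample. Relative to tumor cells the log2 fold change was −1.67 in fibroblast-gated, −2.69 in endothelial-gated, −2.01 in microglia-gated, −2.79 in infiltrating and −3.10 in neutrophil-gated cells, each with an adjusted p under the threshold of 0.05 in edgeR's quasi-likelihood test with Benjamini-Hochberg adjustment (largest 4.47e-05, fibroblast).

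Beside these levels stand 5 tumor genes that the gates did not use, Sox10, Lhfpl3, Scrg1, Fabp7 and Cntn1. Their summed level in the other classes was on average 9.28 to 12% of its tumor level. Single genes had means of 4.06 to 27.3% over all gates, with both ends in the neutrophil gate. Igf2 stood at 21.3% ± 11.1 of its tumor level in the fibroblast gate, 19.5% ± 3.99 in the microglia gate, 12% ± 1.63 in the endothelial gate, 10.5% ± 3.13 in the infiltrating gate and 8.30% ± 2.23 in the neutrophil gate (SD, n = 5 samples each). In the microglia and fibroblast gates Igf2 thus lay above the summed share of the tumor genes but within the range of the single genes. Where no limit was set on tumor-marker UMIs, the log2 fold change of Igf2 shrank to −0.33 in the fibroblast and −0.26 in the microglia gate, and neither was called by edgeR. In the microglia gate a single cell of each sample carried 23.8 to 27.0% of the Igf2 UMIs. In the fibroblast gate a single cell carried 10.4 to 50.1%, and without that cell vehicle 2 fell from 5783 to 3560 CPM. The part of free tumor RNA or of attached tumor cells in these levels was not tested.

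**Figure D1:**
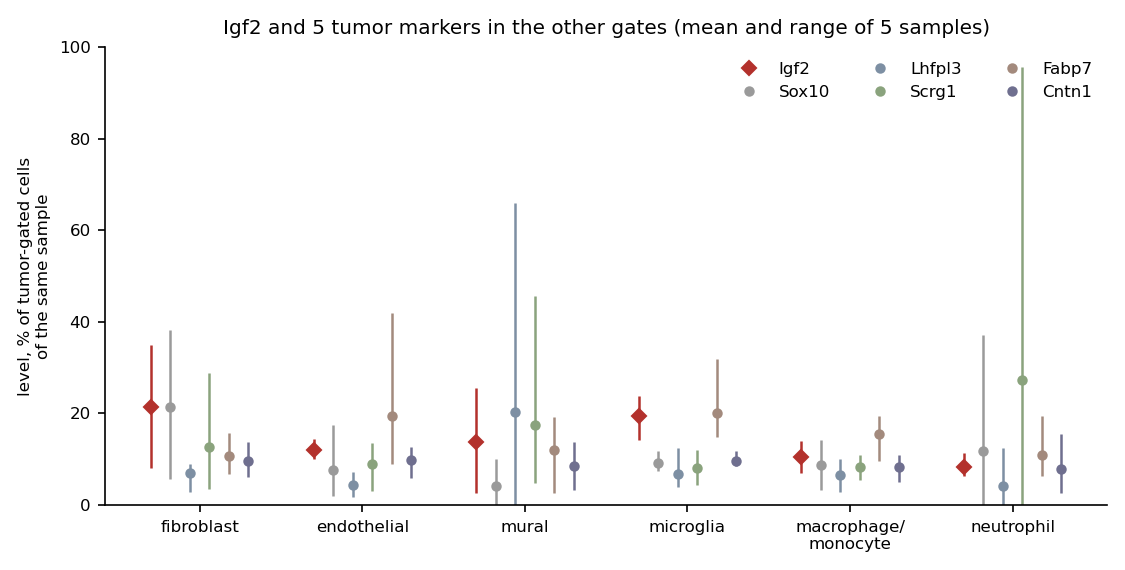
Level of Igf2 and of 5 tumor genes not used by the gates in each non-tumor class, in percent of the level in tumor-gated cells. Points are means over 5 samples and lines the range. The mean of Igf2 is 8.30 to 21.3% over the gates. Means of the tumor genes span 4.06 to 27.3%, with both ends in the neutrophil gate. In the fibroblast gate only Sox10 exceeds Igf2, and in the microglia gate only Fabp7.

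Igf1 had the reverse distribution and was a gene of the myeloid and fibroblast gates. Microglia-gated cells held 321, 317 and 151 CPM with vehicle and 400.1 and 269.7 CPM with Xevinapant, and infiltrating cells 406, 436 and 135 CPM with vehicle and 268 and 188 CPM with Xevinapant. Fibroblast-gated cells followed with 236, 68.3 and 266 CPM in the vehicle samples and 126 and 160.4 CPM in the Xevinapant samples. The ranges of these 3 classes overlapped, with means of 292 ± 91.6, 287 ± 132 and 171 ± 80.6 CPM (SD, n = 5). In tumor-gated cells the level was 0.617, 0.667 and 0.604 CPM with vehicle and 0.98 and 0.7 CPM with Xevinapant, far below every sample of the 3 classes.

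Against tumor cells the log2 fold change of Igf1 was 9.07 (SE 0.41, adjusted p = 1.13e-16, edgeR) in infiltrating cells, 8.98 (SE 0.41) in microglia-gated and 8.56 (SE 0.41) in fibroblast-gated cells. In endothelial-gated cells it was 3.87 (SE 1.03, adjusted p = 0.0023, edgeR). That value rests on 12 UMIs in 214 cells, with 1, 0 and 1 UMIs in the vehicle samples. Of the Igf1 UMIs of all gated cells, the infiltrating gate supplied a mean of 54.2%, the fibroblast gate 18.6%, the microglia gate 15.5% and the far larger tumor gate 9.86%. After each cell was thinned to 2000 UMIs, with shallower cells left out, 34.8% of microglia-gated, 30.1% of infiltrating and 20.4% of fibroblast-gated cells had an Igf1 UMI, against 1.49% of endothelial-gated and 0.149% of tumor-gated cells. The unthinned shares were 53.0, 41.3, 39.7, 4.02 and 1.11%, at mean median depths of 6537, 5039, 8141, 4043 and 12806 UMIs a cell. Neutrophil-gated cells gave 129 CPM in vehicle 1 and 3, 145 CPM in Xevinapant 1 and 2 and 13 CPM in Xevinapant 3 and 4, and in these samples 1 cell carried 87.5, 47.1 and 66.7% of the UMIs. Vehicle 2 gave 480.1 CPM, with all 10 UMIs in 1 of 8 cells, and vehicle 4 gave 0 from 9 cells.

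**Figure D2:**
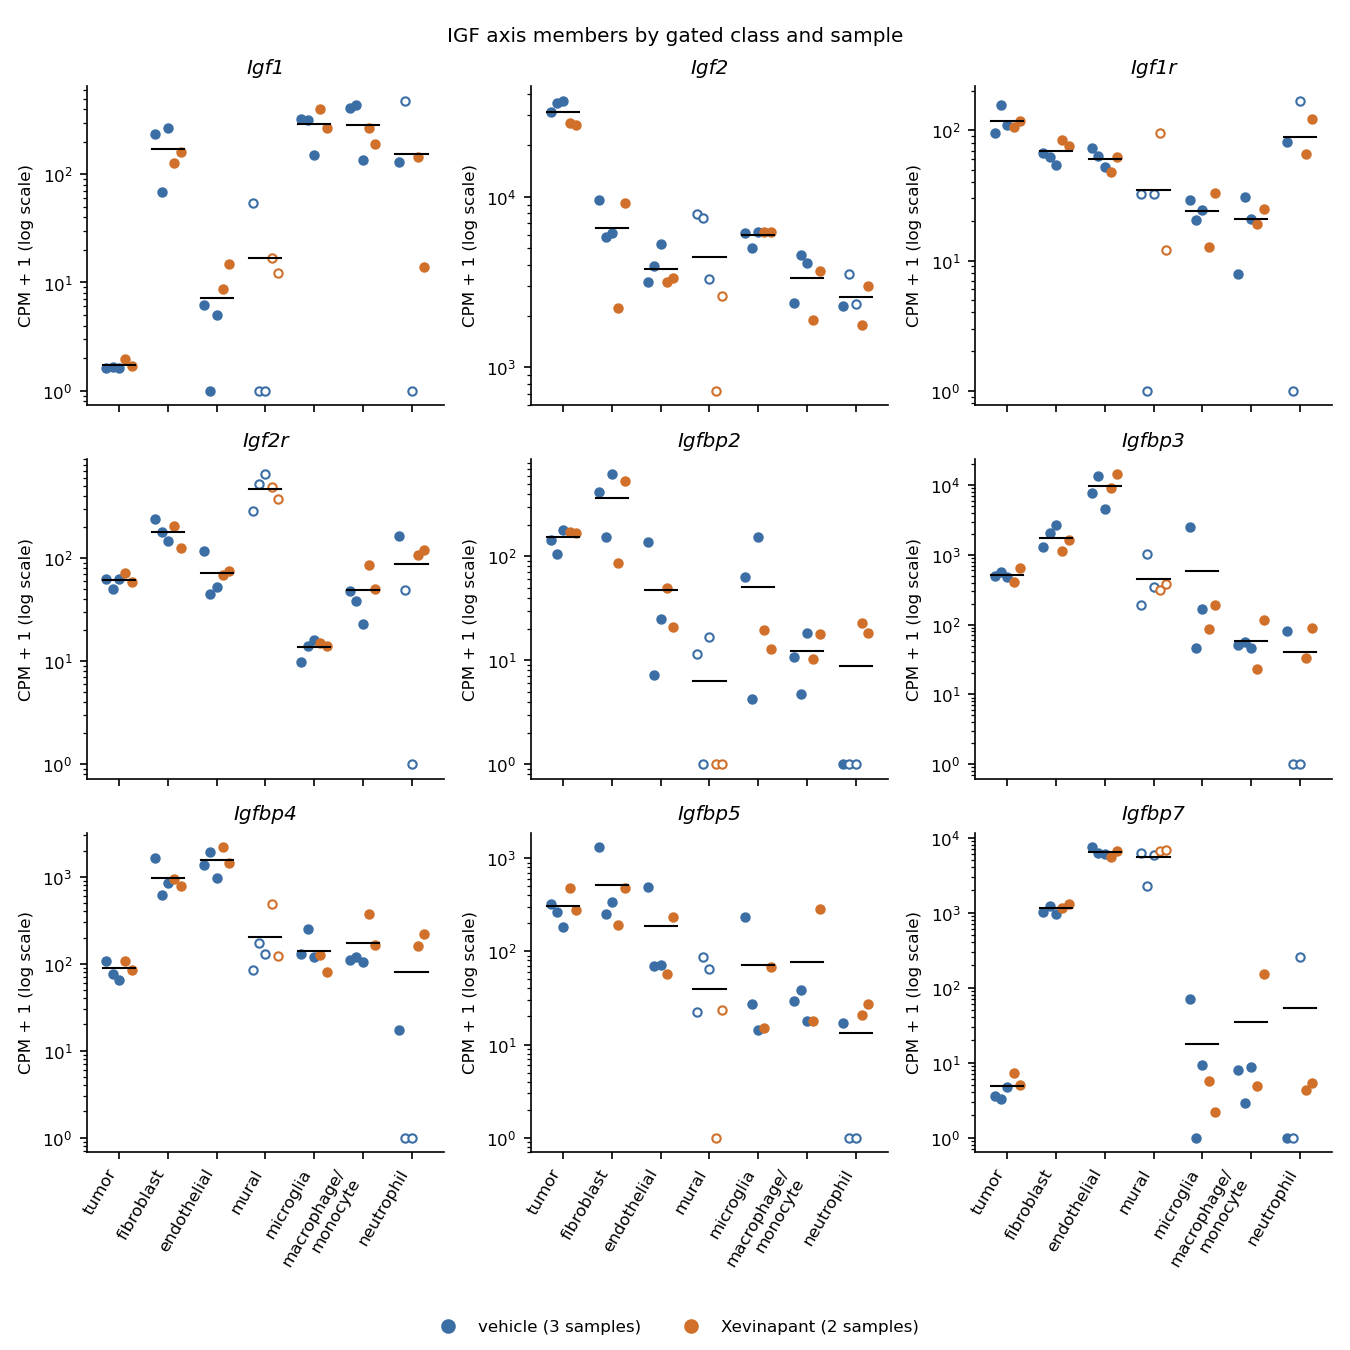
Level of each of the 9 members in 7 gated classes, in CPM plus 1 on a log scale. Each point is 1 sample (vehicle blue, Xevinapant orange, open where under 10 cells were summed) and black bars are means of 5 samples. By mean, Igf2 is highest in the tumor gate, Igf1 in the microglia and infiltrating gates, and Igfbp3, Igfbp4 and Igfbp7 in the endothelial gate.

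Igf1r, the signaling receptor, had its highest mean level in tumor-gated cells. The level there was 94.0, 155 and 109 CPM with vehicle and 106 and 116 CPM with Xevinapant. Fibroblast-gated cells held 66.6, 61.8 and 53.7 CPM with vehicle and 82.6 and 75.5 CPM with Xevinapant, below the lowest tumor sample. After the normalization of edgeR, which scales each class by its own composition, fibroblast-gated and tumor-gated cells differed by −0.07 on the log2 scale (SE 0.18, adjusted p = 0.79, edgeR), so that this order rests on the scale used. Endothelial-gated cells were lower than tumor cells by −0.61 (SE 0.23, adjusted p = 0.026). Among the myeloid gates, Igf1r in neutrophil-gated cells did not differ by a called amount from tumor cells (0.19, SE 0.28, adjusted p = 0.58), while the other two gates were low. Infiltrating cells held 6.93 to 29.8 CPM and microglia-gated cells 11.7 to 31.9 CPM, with log2 fold changes of −2.10 (SE 0.20) and −1.91 (SE 0.24), both called by edgeR. At 2000 UMIs a cell, 19.3% of tumor-gated and 17.2% of fibroblast-gated cells had an Igf1r UMI, against 2.98% of infiltrating and 1.99% of microglia-gated cells.

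Igf2r, the receptor that clears IGF2, was distributed differently. It was highest in mural-gated cells at 285, 519.6 and 650.5 CPM with vehicle and 490.4 and 367 CPM with Xevinapant, although these sums rested on 6 to 41 UMIs a sample and were not tested. Fibroblast-gated cells came next with 238, 179 and 144 CPM with vehicle and 201 and 124 CPM with Xevinapant. Every fibroblast sample lay above every tumor sample, whose levels were 48.9 to 70.9 CPM, and the log2 fold change was 2.15 (SE 0.20, adjusted p = 6.25e-10, edgeR). Microglia-gated cells were lowest at 8.68 to 15.1 CPM (log2 fold change −1.86, SE 0.31, adjusted p = 1.3e-05). Infiltrating cells stood at 46.4, 37.3 and 21.9 CPM with vehicle and 84.7 and 48.7 CPM with Xevinapant, which did not overlap with the microglia gate. The neutrophil gate was called higher than tumor cells (1.39, SE 0.30), and endothelial-gated cells differed by 0.58 (SE 0.25, adjusted p = 0.053), short of the threshold.

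Igfbp7, a secreted protein that binds IGFs weakly and sits in vessel basement membranes, was highest in both vessel gates. Endothelial-gated cells held 7384, 6269 and 6040 CPM with vehicle and 5544 and 6659 CPM with Xevinapant, a mean of 6379 ± 692 (SD, n = 5). Mural-gated cells were close, at 6151, 2251 and 5854 CPM with vehicle and 6596 and 6857 CPM with Xevinapant, and every mural-gated cell had an Igfbp7 UMI. Both ranges overlapped.

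The fibroblast gate followed with 1029, 1239 and 960.0 CPM with vehicle and 1157 and 1280 CPM with Xevinapant, below all endothelial samples. Tumor-gated cells held 2.63, 2.28 and 3.79 CPM with vehicle and 6.31 and 4.04 CPM with Xevinapant. The log2 fold change against tumor cells was 11.08 (SE 0.93, adjusted p = 9.3e-11, edgeR) for the endothelial and 8.87 (SE 0.86, adjusted p = 1.5e-09) for the fibroblast gate. Although endothelial-gated cells were a mean of 0.545% of the gated cells, they supplied 46.8% of the Igfbp7 UMIs, the fibroblast gate 30.3%, the tumor gate 11.5% and the mural gate 9.53%. At 2000 UMIs a cell, 98.9% of endothelial-gated and 72.6% of fibroblast-gated cells had an Igfbp7 UMI, against 1.2% of infiltrating and 0.830% of tumor-gated cells.

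Igfbp3, the main carrier of IGFs in serum, was highest in endothelial-gated cells as well. These held 7696, 13529 and 4494 CPM with vehicle and 9118 and 14453 CPM with Xevinapant, all above the fibroblast gate at 1309, 2059 and 2671 CPM with vehicle and 1118 and 1622 CPM with Xevinapant. Tumor-gated cells held 498, 558 and 479 CPM with vehicle and 405 and 654 CPM with Xevinapant. Tumor cells were thus not free of Igfbp3, and by their number they supplied a mean of 91.2% of its UMIs. The log2 fold change against tumor cells was 4.65 (SE 0.67, adjusted p = 1.71e-06, edgeR) in endothelial-gated, 2.45 (SE 0.61, adjusted p = 0.0014) in fibroblast-gated and −2.81 (SE 0.64, adjusted p = 0.00033) in infiltrating cells.

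Igfbp4, a binding protein that is cut by the protease PAPP-A, was shared by endothelial and fibroblast cells. The endothelial gate held 1384, 1939 and 967 CPM with vehicle and 2179 and 1430 CPM with Xevinapant. The fibroblast gate held 1642, 615 and 857 CPM with vehicle and 931 and 775 CPM with Xevinapant, and the 2 ranges overlapped. Tumor-gated cells were at 64.7 to 106 CPM. Relative to tumor cells Igfbp4 was higher in the endothelial (4.54, SE 0.38), fibroblast (4.13, SE 0.37), infiltrating (1.44, SE 0.34) and microglia gates (1.03, SE 0.35), all on the log2 scale and all called by edgeR. At 2000 UMIs a cell, 83.8% of endothelial-gated, 46.4% of fibroblast-gated, 19.8% of microglia-gated, 18.4% of infiltrating and 14.0% of tumor-gated cells had an Igfbp4 UMI, so that the shares in the microglia and infiltrating gates were near that in the tumor gate. By their number, tumor-gated cells supplied a mean of 82.0% of the Igfbp4 UMIs. The fibroblast gate gave 8.77%, the infiltrating gate 4.64% and the endothelial gate 3.70%. Most endothelial-gated cells held UMIs of Igfbp3 (187 of 214), of Igfbp4 (176) and of Igfbp7 (208).

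Igfbp2 and Igfbp5, neighbors on chromosome 1, had their highest mean level in the fibroblast gate, with the tumor gate next. Igfbp2 is a binding protein of fetal tissue and glia, and Igfbp5 one of connective tissue and muscle. Igfbp2 was 418, 153 and 621 CPM with vehicle and 85.7 and 527 CPM with Xevinapant in the fibroblast gate, and 144, 104 and 177 CPM with vehicle and 172 and 165 CPM with Xevinapant in the tumor gate. The fibroblast range enclosed the tumor range, and the log2 fold change was 1.61 (SE 0.39, adjusted p = 0.0011, edgeR). Single cells carried 27.4 to 74.9% of the fibroblast sums. Endothelial-gated (−1.57, SE 0.53), microglia-gated (−1.51, SE 0.47) and infiltrating cells (−3.27, SE 0.46) were all lower than tumor cells in Igfbp2.

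Igfbp5 stood at 1311, 254 and 335 CPM with vehicle and 190.4 and 476 CPM with Xevinapant in the fibroblast gate, and at 322, 263 and 181 CPM with vehicle and 475 and 275 CPM with Xevinapant in the tumor gate. The ranges overlapped and the log2 fold change of 0.91 (SE 0.51) was not called (adjusted p = 0.14, edgeR). The endothelial gate held 494, 69 and 71.3 CPM of Igfbp5 with vehicle and 56.9 and 233 CPM with Xevinapant, a difference from tumor cells of −0.99 (SE 0.57, adjusted p = 0.15) that was not called. In vehicle 1 and 3 a single cell held 91 of the 95 endothelial UMIs, and without it the level was 23.7 CPM. Igfbp5 was lower than in tumor cells in the infiltrating gate (−2.14, SE 0.56), the microglia gate (−2.47, SE 0.61) and the neutrophil gate (−3.62, SE 0.92). Tumor cells, a mean of 91.2% of the gated cells, supplied 97.8% of the Igfbp2 and 97.9% of the Igfbp5 UMIs.

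Counted over the 9 members, the fibroblast gate was called higher than tumor cells for 6 and lower for 1. Of the 11317 genes tested, 32.4% were called higher and 23.2% lower in this comparison. In the endothelial gate 4 members were higher and 3 lower, beside 29% and 26.7% of all genes. The microglia gate had 3 members higher and 5 lower (28% and 29.2% of all genes), and the infiltrating gate also 3 higher and 5 lower (35.1% and 37.9%). In the neutrophil gate 3 were higher and 4 lower (29.8% and 31%). With so many genes called in each direction, counts of this size say little about the members as a set. Some calls were not stable. Without Xevinapant 3 and 4, Igf1 (3.11, adjusted p = 0.063), Igf1r (−0.67, adjusted p = 0.052) and Igfbp2 (−1.33, adjusted p = 0.053) in the endothelial gate and Igfbp7 in the infiltrating gate (0.94, adjusted p = 0.17) were no longer called by edgeR. Igf1r in the endothelial gate was also not called without Xevinapant 1 and 2 (−0.55, adjusted p = 0.058). Igfbp7 in the microglia gate (2.33, SE 0.96, adjusted p = 0.040, edgeR) was −0.06 without vehicle 1 and 3, and Igfbp4 in that gate was 0.73 without vehicle 2, 0.96 without vehicle 4, neither called, and −0.05 where no limit was set on tumor-marker UMIs. Without that limit Igfbp2 (0.78) and Igfbp3 (0.82) in the fibroblast gate also lost their calls. Igfbp4 in the neutrophil gate (1.31, SE 0.45, adjusted p = 0.014) was −2.22 when cells with more than 1 of C1qa, C1qb, C1qc and Csf1r, genes of macrophages, were left out, a gate chosen after its values were seen. In each of these contrasts the sample was a block, with 5 samples (3 for the neutrophil gate).

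Some sums rested on a single cell of very many UMIs. In microglia-gated cells Igfbp3 stood at 2478 CPM in vehicle 1 and 3 against 45.4 to 192 CPM in the other 4 samples. In that sample 1 cell held 1105 Igfbp3 UMIs, 96.8% of the sum. This cell had 57826 UMIs in all, with 10 of 10 myeloid and 9 of 10 tumor gate markers detected, and without it the level was 91.8 CPM.

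In the infiltrating gate of Xevinapant 3 and 4, 1 cell of 32837 UMIs held 87.6% of the Igfbp5 UMIs and another of 52929 UMIs held 89.8% of the Igfbp7 UMIs. The first had 9 of 10 myeloid and 7 of 10 tumor gate markers. The second had 9 myeloid, 6 tumor and 6 fibroblast gate markers detected. Without these cells Igfbp5 fell from 284 to 35.5 CPM and Igfbp7 from 149 to 15.5 CPM. Sums with more than 50% of their UMIs in 1 cell were 9 of 44 in the microglia gate, 6 of 45 in the infiltrating gate, 3 of 45 in the fibroblast gate and 7 of 44 in the endothelial gate. Igfbp4 in the infiltrating gate was not among them, with 3.8 to 15.6% of its UMIs in the top cell. Whether these barcodes held more than 1 cell was not tested.

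**Figure D3:**
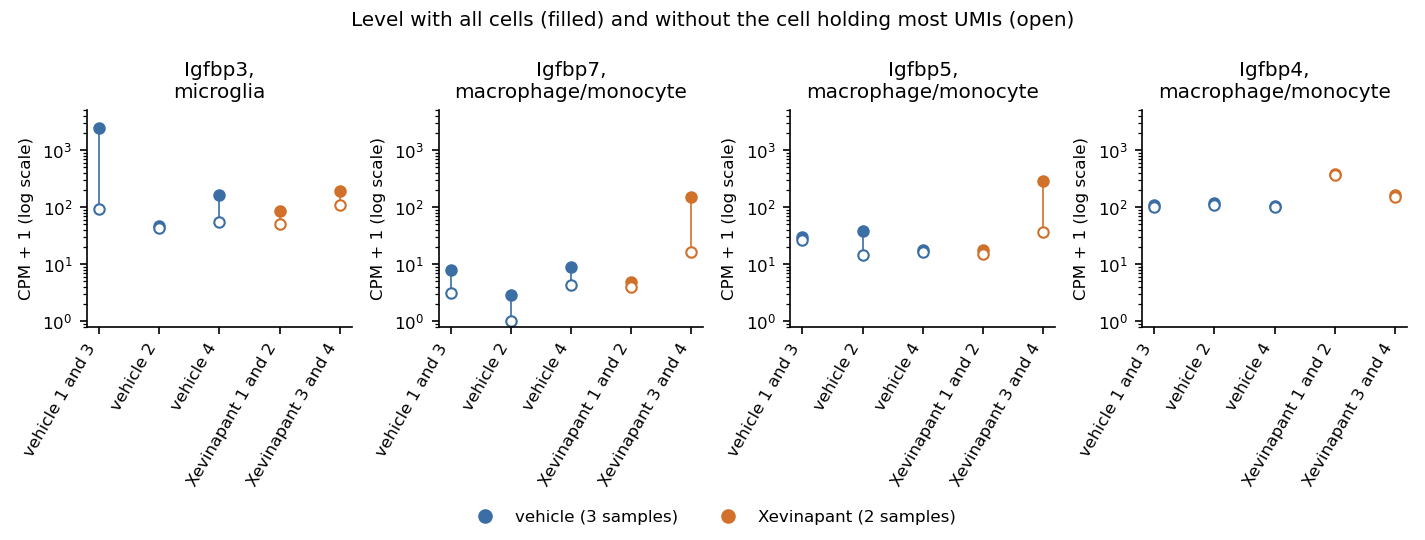
Level in CPM with all cells (filled) and without the cell that holds the most UMIs of the gene (open), per sample, for Igfbp3 in the microglia gate and Igfbp7, Igfbp5 and Igfbp4 in the infiltrating gate. Igfbp3 of vehicle 1 and 3 drops from 2478 to 91.8 CPM and Igfbp7 of Xevinapant 3 and 4 from 149 to 15.5 CPM, while Igfbp4 changes little.

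Within the tumor gate, cells were ranged by the markers the study lists for the mesenchymal-like (MES), astrocyte-like (AC), neural progenitor-like (NPC) and oligodendrocyte progenitor-like (OPC) states, of which Igfbpl1 was replaced. These are ranges of a marker score and not separate cell types. They held 2644 MES, 2897 AC, 3773 NPC and 2153 OPC cells, while 24692 cells reached no state. Of the OPC cells 64.2% lay less than 25% above the threshold of their range, against 26.4% of MES, 25.1% of NPC and 10.8% of AC cells.

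Igfbp3 and Igfbp2 followed the states most closely. Igfbp3 was 1113, 1003 and 900.0 CPM with vehicle and 1193 and 1243 CPM with Xevinapant in MES cells, and 59.2 to 114 CPM in OPC cells. AC cells held 373 to 855 CPM and NPC cells 105 to 405 CPM, so that MES cells lay above all samples of the other states. Compared with the mean of the other 3 states, the log2 fold change of Igfbp3 was 2.13 (SE 0.19, adjusted p = 7.68e-08, edgeR) in MES, 1.30 (SE 0.20) in AC, −0.69 (SE 0.22, adjusted p = 0.012) in NPC and −2.74 (SE 0.26, adjusted p = 8.64e-08) in OPC cells.

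The ranges of Igfbp2 overlapped between MES and AC cells, at means of 402 ± 72.4 and 360.0 ± 97.0 CPM, and lower in NPC (89.8 ± 4.96) and OPC cells (51.3 ± 17.3; SD, n = 5 each). The AC and NPC ranges did not overlap, nor did those of NPC and OPC cells. Its log2 fold changes were 1.73 (SE 0.10), 1.60 (SE 0.10), −1.15 (SE 0.12) and −2.18 (SE 0.13) in MES, AC, NPC and OPC cells, all called by edgeR. At 2000 UMIs a cell, 34.4% of MES, 35.0% of AC, 13.1% of NPC and 7.17% of OPC cells had an Igfbp2 UMI.

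Igfbp5 was higher in AC (1.01, SE 0.15) and MES cells (0.59, SE 0.15) and lower in NPC (−0.98, SE 0.16) and OPC cells (−0.62, SE 0.16). For Igfbp7 the AC state was called higher (1.60, SE 0.22, adjusted p = 4.95e-06, edgeR), at a low level of 11.8 ± 7.00 CPM against 3.6 to 4.65 CPM in the other states (means of 5 samples). Igf1r was higher in MES (1.05, SE 0.09) and slightly in NPC cells (0.23, SE 0.09, adjusted p = 0.040), and lower in AC (−0.52, SE 0.10) and OPC cells (−0.76, SE 0.10). Igf2 varied less. Its means were 32902 CPM in MES, 28938 in NPC, 23340 in OPC and 20498 in AC cells, with MES called higher (0.43, SE 0.13) and AC lower (−0.35, SE 0.13). Igf2r and Igfbp4 were also higher in MES cells, by 0.56 (SE 0.06) and 0.44 (SE 0.15) on the log2 scale. The Igf2 call in MES cells was lost without vehicle 1 and 3 (0.40, adjusted p = 0.053), that in AC cells without any 1 of the vehicle samples (−0.29 to −0.34), and the Igf1r call in NPC cells without vehicle 1 and 3, vehicle 2 or Xevinapant 3 and 4 (0.14 to 0.23). The Igfbp4 call in MES cells was lost without vehicle 4 (0.37, adjusted p = 0.084, edgeR). Igf1 was called in no state.

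In all, MES cells were called higher for 7 members and lower for none, where 28.1% and 28.9% of the 12695 genes tested were called. The AC state had 4 higher and 4 lower (33.3% and 32.7% of all genes), the NPC state 1 higher and 5 lower (29.6% and 32.5%) and the OPC state 0 higher and 5 lower (27.6% and 30.1%). The 7 of 9 in MES cells was the count farthest from its background.

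**Figure D4:**
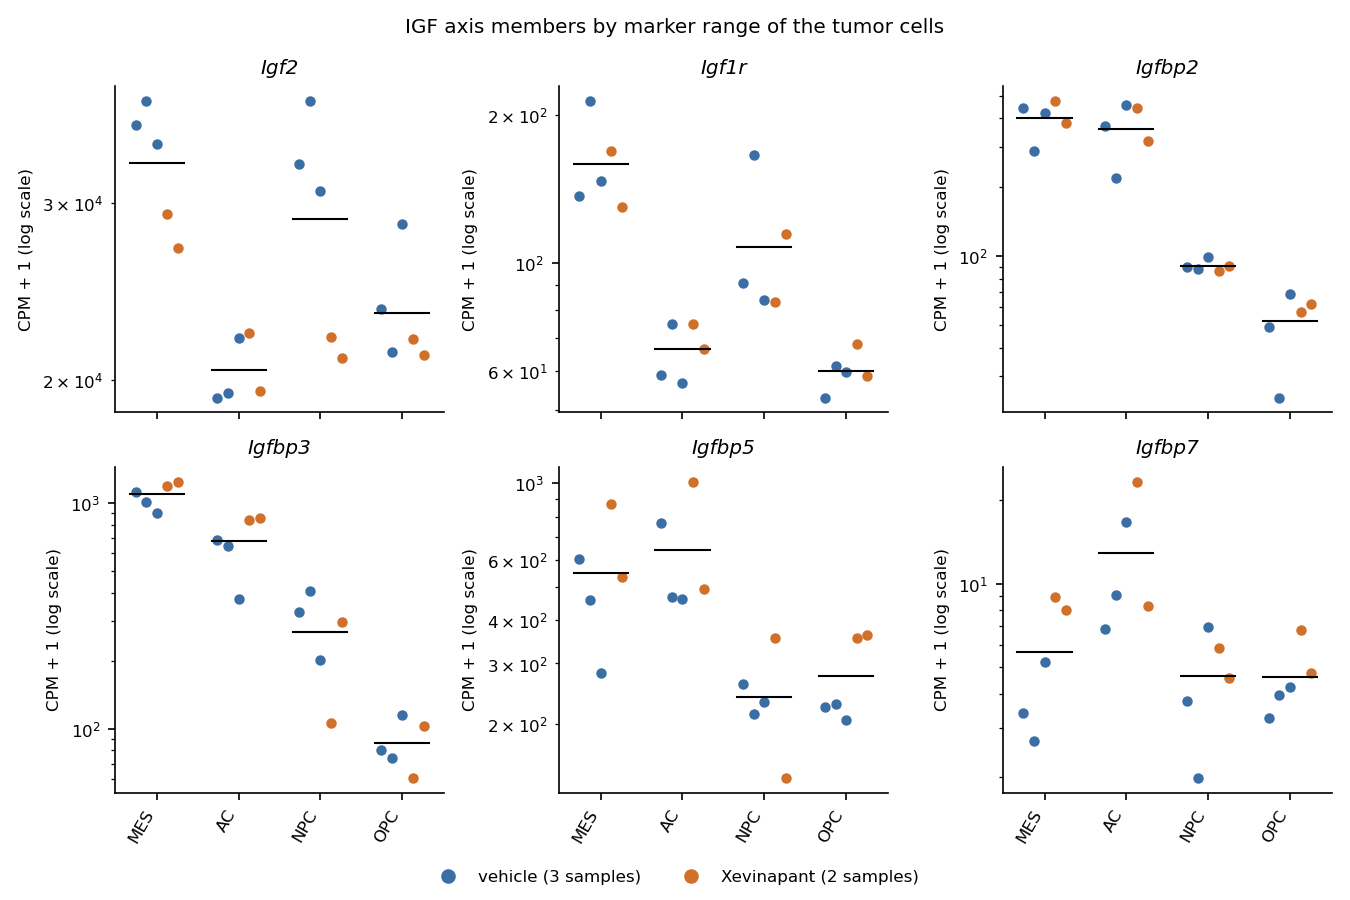
Level in CPM of 6 members in the MES, AC, NPC and OPC ranges of tumor-gated cells. Points are samples and black bars means of 5 samples; Igfbp3 falls from 1090 CPM in MES to 85.4 CPM in OPC cells, and Igfbp2 is higher in MES and AC than in NPC and OPC cells in every sample.

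Vehicle and Xevinapant were then compared within each class. In 48 tests of a member in a class, 0 had an adjusted p under 0.05 in edgeR's quasi-likelihood test. The smallest adjusted p was 0.328, and 6 had an unadjusted p under 0.05. The share of all genes under this unadjusted threshold is not given here, so the 6 cannot be set against a background. The neutrophil gate gave 6 of these tests and 1 of the unadjusted p-values with only 1 vehicle sample against 2, so that its spread comes from Xevinapant alone. DESeq2 also called 0. Of all genes tested, 0% were called in the tumor gate, 0% in the fibroblast gate, 0.219% in the endothelial gate, 0% in the microglia gate, 0.0195% in the infiltrating gate and 0% in the neutrophil gate. A gene had to change strongly to be called with these samples, so a missed call does not show equal levels.

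Igfbp4 in the infiltrating gate met the rule for a named change, with samples that did not overlap and a log2 fold change of at least 1. The level was 109.5, 119 and 102 CPM in the vehicle samples and 376 and 163 CPM in the Xevinapant samples. Both Xevinapant samples lay above all vehicle samples, and Xevinapant 1 and 2 far above the other. Markers of other cells in this gate differed between the groups as well. The 4 held-out microglia genes summed to 1192, 1246 and 1285 CPM with vehicle and 682 and 957 CPM with Xevinapant, and the 5 tumor genes to 369, 433 and 532 CPM with vehicle and 216 and 340 CPM with Xevinapant. Both lists were lowest in Xevinapant 1 and 2. The 5 endothelial genes were higher with Xevinapant, at 63.1, 52.2 and 55.4 CPM with vehicle and 75.5 and 74.2 CPM with Xevinapant. The part of these cells in the result was not tested. For Igfbp4 the log2 fold change was 1.30 (SE 0.33, unadjusted p = 0.0038, adjusted p = 0.328, edgeR), which was not called, and it was 1.81 (adjusted p = 0.035) without Xevinapant 3 and 4 and 0.50 (adjusted p = 0.875) without Xevinapant 1 and 2. Both leave 1 Xevinapant sample, whose spread is assumed to be that of vehicle. With no filter on low counts it was called (1.32, adjusted p = 1.32e-07, edgeR), and over the other settings that kept all samples the adjusted p ran from 0.043 to 0.570. A block on the matrix number, with each matrix as a sample, also called Igfbp4 here, but it counts alike matrices as separate. At 2000 UMIs a cell the share of infiltrating cells with an Igfbp4 UMI was 14.0, 20.3 and 16.4% with vehicle and 25.2 and 16% with Xevinapant, which overlapped.

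Igf2r was the other member without overlap in the infiltrating gate (log2 fold change 0.95, SE 0.36, adjusted p = 0.455, edgeR), which makes 2 of 9 members beside 25.6% of all genes. In tumor-gated cells 3 of 9 members did not overlap, beside 30.8% of all genes. Igf2 was lower with Xevinapant (−0.42, SE 0.28, adjusted p = 0.559), and Igf1 (0.35, SE 0.34, adjusted p = 0.692) and Igfbp7 (0.78, SE 0.35, adjusted p = 0.454) were higher, none of them called by edgeR. The median tumor cell held 27298, 31285 and 33920 CPM of Igf2 with vehicle and 21850 and 21811 CPM with Xevinapant. Within the states, mean Igf2 was 36055 CPM with vehicle and 28173 with Xevinapant in MES cells and 33859 and 21556 in NPC cells, without overlap of the samples (exact two-sided permutation p = 0.2 for both, the smallest p this test can give here). In AC cells it was 20226 and 20906 CPM and in OPC cells 24518 and 21572 CPM, with overlap. Of the 9 members, 3 did not overlap between treatments in MES cells, 1 in AC cells, 1 in NPC cells and 2 in OPC cells, where 28.6%, 27.2%, 22.4% and 30% of the 14408 genes tested in tumor cells did not overlap either. The others beside Igf2 were all higher with Xevinapant. They were Igfbp3 in MES cells (mean 1005 CPM with vehicle and 1218 with Xevinapant) and AC cells (568 and 845), Igfbp5 in OPC cells (219 and 358), and Igfbp7 in MES cells (2.77 and 7.46) and OPC cells (2.82 and 4.75). In the whole tumor gate the log2 fold change of Igfbp3 was only −0.01 (SE 0.21, adjusted p = 0.988, edgeR). In NPC cells Igfbp3 was 326, 405 and 199 CPM with vehicle and 105 and 297 CPM with Xevinapant, with overlap. Its samples in OPC cells overlapped as well. The Igfbp7 and Igf1 values in the tumor gate were under 7 CPM and moved beside genes of other cells. The summed level of 5 endothelial genes in tumor-gated cells was 7.63 to 9.84 CPM with vehicle and 10.9 to 22.7 CPM with Xevinapant. For 5 macrophage and monocyte genes it was 17.7 to 31.7 CPM with vehicle and 36.5 to 67.0 CPM with Xevinapant. Their part in the result was not tested.

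In the other classes with at least 10 cells in each sample, fewer tested members lacked overlap. In the fibroblast gate 1 of 9 members, Igf1r, did not overlap (15.8% of all genes). In the endothelial gate it was 0 of 8 (26.2%) and in the microglia gate 0 of 7 (17.6%). The endothelial 8 leave out Igf1, which failed the filter on low counts. Its level was 5.20, 0 and 3.96 CPM with vehicle and 7.76 and 13.8 CPM with Xevinapant, without overlap. The endothelial log2 fold changes ran from −0.72 to 0.44 and those in fibroblasts from −1.01 to 0.38. For Igfbp7 in the endothelial gate the log2 fold change was −0.11 (SE 0.25, adjusted p = 0.905) and for Igfbp3 0.44 (SE 0.38, adjusted p = 0.702, edgeR). The mural and neutrophil gates, with under 10 cells in some samples, were not counted in this way. In the mural gate Igf2 was 7969, 7534 and 3284 CPM with vehicle and 728 and 2627 CPM with Xevinapant. Neither it nor Igfbp7 overlapped there, on 3 to 9 cells a sample. Igfbp2, Igfbp4 and Igfbp5 did not overlap in the neutrophil gate, where vehicle gave 0 or 1 UMIs a sample. The share of all genes without overlap was not counted in these gates.

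The largest fitted changes of members rested on few cells. In the infiltrating gate Igfbp7 (3.48, SE 1.30) and Igfbp5 (2.48, SE 0.94) shared an adjusted p of 0.455 in edgeR, and without Xevinapant 3 and 4, the sample with the single cells described above, they turned to −0.64 and −0.57. Leaving out Xevinapant 1 and 2 instead gave 4.46 (adjusted p = 0.0025) and 3.40 (adjusted p = 0.0031), but these compare 3 samples with the 1 that holds those cells, whose spread is assumed to be that of vehicle. The block on the matrix number, which counts alike matrices as separate, called Igfbp7 in the infiltrating gate. In the microglia gate Igfbp3 (−2.67, SE 1.28) and Igfbp2 (−2.42, SE 0.94) had an adjusted p of 0.999 in edgeR. In the neutrophil gate Igfbp4 was 16.2 CPM from 1 UMI in vehicle 1 and 3, against 160.0 CPM (96 UMIs) and 222 CPM (51 UMIs) in the Xevinapant samples. A single cell held 52.1 and 80.4% of the latter UMIs, and the log2 fold change of 3.61 (SE 0.89, adjusted p = 0.564, edgeR) compared 1 sample with 2.

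**Figure D5:**
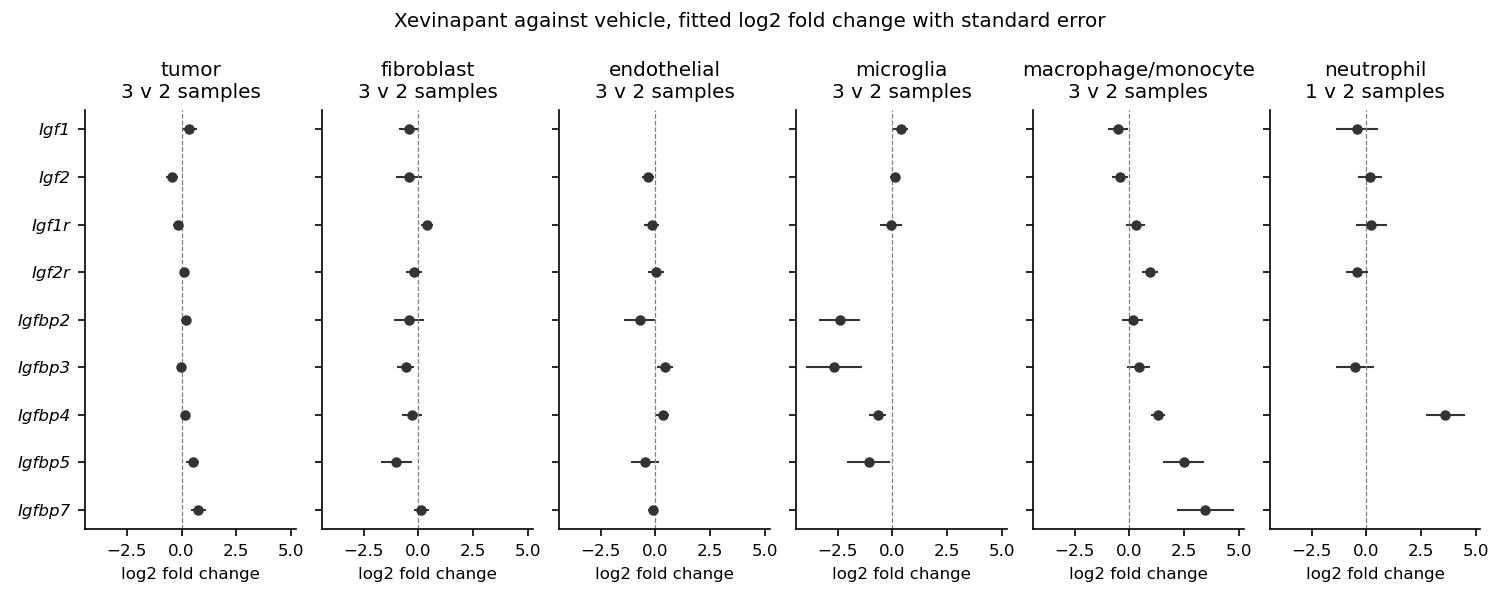
Log2 fold change of Xevinapant over vehicle for each member in 6 classes, with lines of 1 SE. Adjusted p was 0.328 or more for every point, and the points farthest from 0, Igfbp4 in the neutrophil gate and Igfbp7 in the infiltrating gate, have SEs of 0.89 and 1.30.

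Around the 9 members, 28 further genes of the pathway were read in the same fits. The fibroblast gate was called higher than tumor cells for 14 of the 21 tested and lower for 2, beside 32.4% and 23.2% of all genes. Among them were Pappa, the protease of Igfbp4 (log2 fold change 10.65), the binding protein gene Igfbp6 (9.17), the growth hormone receptor Ghr (7.77), the IGFBP protease Htra1 (5.74), the stanniocalcin Stc1, whose protein family inhibits PAPP-A (5.54), and the adaptor Grb10 (5.05). In the endothelial gate 7 were higher and 7 lower, shares near the 29% and 26.7% of all genes. The higher ones included Cd93, which codes for a membrane protein that binds IGFBP7 (8.37), Stc1 (7.31), Ghr (6.57), Grb10 (5.85), the insulin receptor Insr (3.12) and the transcription factor Foxo1 (3.10), while the adaptor Irs2 (−3.66) and the endocytic receptor Lrp1 (−3.29) were lower. The endothelial Ghr value rests on 24 UMIs in 21 of 214 cells, against 211 UMIs in 101 of 36159 tumor-gated cells. The infiltrating gate had 9 higher and 5 lower (35.1% and 37.9% of all genes), the microglia gate 6 and 7 (28% and 29.2%), and the neutrophil gate 7 and 4 (29.8% and 31%).

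In the tumor states 20 of these genes were tested. MES cells were higher for 11 and lower for 4, with Stc1 (3.41) and Cd93 (2.27) among the higher, beside 28.1% and 28.9% of all genes. AC cells were higher for 7 and lower for 7, close to the 33.3% and 32.7% of all genes. The counts were 4 and 12 in NPC cells (29.6% and 32.5%) and 5 and 9 in OPC cells (27.6% and 30.1%). Igfbpl1, a neuronal IGFBP-like gene, was higher in NPC cells by 5.14. Between treatments 0 of these genes were called in any class by edgeR or by DESeq2. The smallest adjusted p was 0.087, for Stc1 in the endothelial gate (log2 fold change 1.61, SE 0.35).

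The genes whose levels over 28 sums of class and sample were most like each member were sought among 8135 genes. The sums share libraries and cell classes, so the correlations are descriptions. Igfbp7 was most like Unc5b (Pearson r = 0.971) and Cavin1 (0.967), and Igfbp3 like Col4a1 (0.962), Prss23 (0.946) and Adamts4 (0.945). Igfbp4 was most like Layn (0.953), Arsa (0.916) and Vamp5 (0.916). For Igf1 the nearest were Ang (0.954), Ctsh (0.942) and Hgf (0.939), and for Igf2 Lrrc4b (0.945), Sox6 (0.944) and Tecr (0.943). Weaker likeness was found for Igf1r (Cdc42ep4, 0.834), Igf2r (Zfp503, 0.805), Igfbp2 (Sec61a1, 0.875) and Igfbp5 (Apcdd1, 0.866). Among the members, Igfbp7 was closest to Igfbp4 (0.893) and Igfbp3 (0.852).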

How the data were processed

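Single cells of tumors, given by the submitters as 4 with vehicle and 4 with Xevinapant, were measured as UMI counts. The authors deposited them as unnormalized matrices of genes by barcodes. Per the labels, reads were mapped to mm10 and counted with Cell Ranger 3.0 and analysed in Seurat 4.0, while the matrix headers name Cell Ranger 7.1.0. One group is labelled as total RNA and the other as polyA RNA, and the files of the Xevinapant group carry the word vehicle in their names, so groups follow the labels.

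The cell filter asked for 200 or more detected genes, no more than 10% of UMIs from mitochondrial genes, and a log10 ratio of genes to UMIs (complexity) of 0.8 or more. The highest Scrublet scores (scanpy 1.11.5), at a rate that grew with the number of barcodes, removed 3905 of 54574, in place of the 3 callers of the study. Depth per matrix was 71835789 to 300206053 UMIs. Alike matrices were joined into 5 samples.

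A class needed at least 4 of 10 detected markers and 3 more than any other non-tumor list, with tumor-marker UMIs under 25% of the tumor median of the matrix. The mixed barcodes (1992) and those over this limit were left out. Cx3cr1, Ly6c2, Olfml3 and Stfa2l1 had no row here. A state needed at least 2 times the mean marker level and 3 UMIs. UMIs were summed per sample and class of at least 10 cells. They were tested with edgeR 4.0.16 in R 4.3.3 (TMM, filterByExpr, quasi-likelihood, Benjamini-Hochberg over all genes, 0.05), with the sample as a block between classes and states, and with no covariate between treatments. Scripts were checked on simulated counts. DESeq2 1.42.0, other gates, filters and scalings, thinned sums, unjoined matrices and leaving out each sample were tried. Python 3.11.15 was used.

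All members have their levels given. A treatment change was named if called, or if samples did not overlap with a log2 fold change of at least 1 at 10 CPM or more. The second part was read only for members that passed the filter on low counts. It covered classes with at least 10 cells in each of the 5 samples, so not the mural or neutrophil gate. The members and lists were chosen with earlier results of these data known. One gene of the likeness search is not reported here.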

Additional observations from a re-analysis of the deposited data

How the results depend on the processing

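The labels number no samples, but the matrices carry the numbers 1 to 4 in both groups. In tumor-gated sums, deviations from the group means correlated across genes at 0.21, −0.059, −0.20 and 0.13 for the numbers 1 to 4, so the expression of same-numbered matrices did not deviate together in every pair, although they shared more droplet barcodes than others did. A replicate block on it, with each matrix as a sample, added after seeing the data, called 2 members (Igfbp4 and Igfbp7, infiltrating) and 8 genes in tumor cells, 3 in fibroblasts, 39 in endothelial cells, 1 in microglia, 141 in infiltrating cells and 5 in neutrophils, and counts alike matrices as separate. How many genes were tested under this block is not given here, so its counts have no background share beside them. Of the 555 alternative values for 37 class results, 518 kept direction and call, 32 lost the call and 5 reversed. Of 234 for 26 state results, 215 kept both and 19 lost the call, and of 160 for 10 treatment results 145 kept both, 12 gained a call and 3 reversed. The cause was not tested. Reversed class values were −0.055 for Igfbp4 in microglia and 0.082 for Igfbp2 in neutrophils without the limit on tumor-marker UMIs, −0.065 for Igfbp7 in microglia without vehicle 1 and 3 (−0.065 to 2.84 leaving out a sample), and for Igfbp4 in neutrophils −1.30 with 6 gate markers and −2.22 with the macrophage-gene gate chosen after seeing the data. Reversed treatment values were −0.57 for Igfbp5 and −0.64 for Igfbp7 in the infiltrating gate without Xevinapant 3 and 4 (up to 3.40 and 4.46 leaving out another sample), and 0.13 for Igfbp2 in microglia without the limit.

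The treatment calls of members numbered 0 with the filter and 8 with no filter on low counts. Library-size scaling added Igfbp4 in the neutrophil gate, which had 1 vehicle sample. How many genes were tested under these other settings is not given here. Neither these counts nor those below can thus be set against a background share. Genes called between treatments were 0 in tumor cells (DESeq2 243, each matrix as a sample 672), 0 in fibroblasts (no filter 183, DESeq2 5, each matrix 1) and 0 in microglia (no filter 60, DESeq2 1, each matrix 1, 0 to 1 leaving out a sample). They were 14 in endothelial cells (no filter 147, no limit on tumor markers 59, thinned 7, 2 to 47 leaving out a sample). In infiltrating cells 2 were called (no filter 407, DESeq2 48, 3 markers 4, 6 markers 1, no limit 0, a limit of 10% 0, each matrix 114, 0 to 49 leaving out a sample), and in neutrophils 0 (library size 28, no filter 27, DESeq2 1, 6 markers 4, a limit of 10% 27, the macrophage-gene gate 14, thinned 5).

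Among class calls of members, library-size scaling gave 2 lower in fibroblasts and 1 higher in microglia. It moved the median of all genes in these contrasts to between −0.78 and −0.45, from between −0.17 and 0.04. Without the limit there were 0 lower in fibroblasts, 1 higher and 2 lower in microglia and 3 lower in infiltrating cells, and 6 markers left 2 lower in neutrophils. Leaving out a sample gave 3 to 5 higher and 1 to 4 lower in endothelial cells, 1 to 3 higher in microglia, 2 to 4 lower in neutrophils, 1 to 4 lower in AC and 0 to 1 higher in NPC cells. With no barcodes removed by Scrublet score 0 were higher in NPC cells.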

Other observations

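Igfbp6, a binding protein with a preference for IGF2, was counted in the neutrophil gate as well as in fibroblasts. Of 342 neutrophil-gated cells 75 had an Igfbp6 UMI, against 254 of 540 fibroblast-gated and 63 of 1797 infiltrating cells. The level in the neutrophil gate was 97.1, 0 and 84.4 CPM in the vehicle samples and 123 and 130.4 CPM in the Xevinapant samples, where the vehicle values rest on 8 to 34 cells. Relative to tumor cells the log2 fold change was 7.87 (SE 0.42, adjusted p = 1.75e-13, edgeR). Igfbp6 was among the pathway genes chosen with earlier results of these data known, and it was singled out after its values were seen. The summed level of 5 fibroblast genes in the neutrophil gate was 0 to 34.8 CPM, against 3252 to 4967 CPM in the fibroblast gate.

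In the infiltrating gate Igfbpl1 had a fitted change of 4.24 between treatments (SE 0.80, adjusted p = 0.242, edgeR), which was not called. A single cell held 84 of the 149 UMIs (56.4%), which came from 17 of 1797 cells. In tumor-gated cells Igfbpl1 was 15.2, 13.3 and 5.31 CPM with vehicle and 11.1 and 74.4 CPM with Xevinapant.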
